A study of Mus musculus with 4 samples.

Results

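The genes described here are the extracellular and membrane part of the Wnt pathway in mouse pancreas: Wnt ligands, the proteins that export them, Frizzled and LRP receptors, the R-spondin axis, secreted antagonists, and feedback genes. They were taken by gene name, as all Wnt, Fzd, Sfrp, Dkk, Rspo and Lgr4 to Lgr6 genes together with Lrp5, Lrp6, Wif1, Axin2, Znrf3, Rnf43, Sp5, Notum, Porcn, Wls and Nkd1. This gave 55 of the 52535 gene models in the count files, and each name was found once. RNA sequencing was done on pancreas samples with the cell type given as ductal, all from C57BL/6 mice. The 2 wild-type libraries are called WT 1 and WT 2. The 2 libraries labelled Lats1/2 KO, called KO 1 and KO 2, have the genotype Lats1fl/fl; Lats2fl/fl; Sox9-CreER. Lats1 and Lats2 encode Hippo kinases, which keep YAP and TAZ out of the nucleus, and Sox9-CreER is a tamoxifen-dependent Cre active in cells that express Sox9, which in adult pancreas are mainly duct cells. Age, inducer, time after induction and how duct cells were isolated are not stated in the labels, nor whether the wild-type mice carried Cre. No label ties the replicates to different animals, and p-values then measure only how far these samples spread, which may be technical.

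Wnt ligands are lipid-modified by Porcn in the endoplasmic reticulum and carried to the cell surface by Wls. At a receiving cell they bind a Frizzled together with LRP5 or LRP6, which stabilises beta-catenin and turns on TCF/LEF target genes, or they act through Frizzleds with ROR and RYK receptors without beta-catenin. Rnf43 and Znrf3 are ubiquitin ligases that remove Frizzleds from the surface, and R-spondins, bound to LGR4 to LGR6, take these ligases away. SFRPs and WIF1 bind the ligands, DKKs bind the LRP co-receptors or act as related secreted proteins, and Notum removes the lipid. In adult pancreas the pathway is known for low activity at rest and for a part in regeneration and in duct-like tumours.

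The libraries held between 3566387 and 5925601 counts, and 45 or 46 of the 55 genes had at least 1 count in each. Levels are CPM, counts scaled to library size with TMM factors. Changes are log2 values of the knockout-labelled libraries minus wild type, given with their standard error (SE) from an edgeR quasi-likelihood fit to all genes, n = 2 libraries a group. Lats1 (log2 difference 0.36 ± 0.19 SE, edgeR's adjusted p = 0.172) and Lats2 (0.39 ± 0.19 SE, edgeR's adjusted p = 0.127) were not lower in the knockout-labelled libraries. Counts over whole gene models include transcripts that lack only the floxed exons, so these values do not check the deletion. Xist, a female transcript, had 0 counts in WT 2 and 362, 852 and 838 in WT 1, KO 1 and KO 2. Markers of duct cells were present in all 4 libraries. The summed level of 10 duct genes was 998 and 1323 CPM in wild type, against 7678 and 8050 CPM in the knockout-labelled libraries, and 7 of them, Krt19 and Sox9 included, were called higher.

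Other cell types were present as well and differed between the groups. The 10 fibroblast and stellate genes summed to 2619 to 2999.6 CPM in wild type, against 9611 to 15044 CPM in the knockout-labelled libraries (8 higher, 0 lower), and the 10 macrophage genes to 482 to 525 and 3249 to 4575 CPM (10 higher). The reverse held for T and NK cell genes (1259 CPM in both wild-type libraries, 24.9 to 53.7 CPM in the others, 10 of 10 lower), B cell genes (2579.7 to 2648 against 75.8 to 193 CPM, 10 of 10 lower) and smooth muscle and pericyte genes (4296 to 5171 against 1234 to 1962 CPM, 8 lower, 1 higher). Endothelial genes summed to 1331 to 1413 and 679 to 739 CPM (6 of 10 lower), and acinar genes to 42567 to 76429 and 152 to 3351 CPM (2 of 9 tested lower). Over all tested genes 22.0% were called higher and 20.2% lower, so the acinar share of 22.2% lower is near that of all genes. Islet genes summed to 1149 to 2183 and 169 to 283 CPM (3 lower and 1 higher of 8 tested). No list was at 0 as a whole, and of the defining markers only Ptf1a, Neurod1, Upk1b and Nkg7 had 0 counts in any library. In such bulk samples, more cells of a type and more RNA per cell cannot be told apart. The part of any cell type in the changes given here was not tested, and marker values beside a gene are descriptions.

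Most of the Wnt genes that could be tested were higher in the knockout-labelled libraries, from ligand and export protein to receptor and antagonist. Of the 55 genes, 37 passed the filter on low counts (about 2.04 CPM in at least 2 libraries), 20 were called higher and 6 lower at an edgeR adjusted p below 0.05. That is 54.1% higher and 16.2% lower, where 22.0% of all 13990 tested genes were called higher, 20.2% lower and 42.2% in either direction. The share lower is thus near that of all genes. The median log2 change of the 37 tested Wnt genes was 1.18, against -0.01 for all tested genes. Of the 37, 6 reached the filter only in the knockout-labelled libraries (Wnt2, Wnt9a, Wnt10a, Lgr5, Sfrp2 and Sp5) and 2 only in wild type (Wnt2b and Wnt6). Such genes had to differ, so these shares, the median and the counts of calls kept, given below, are a description. Wnt9a, Wnt10a, Sfrp2 and Sp5 are among the 14 calls that held throughout. The lower calls were the less firm ones: leaving out 1 library gave 3 lower genes without WT 1, 4 without WT 2, and 2 without KO 1 or without KO 2, while the higher genes numbered 15 to 18. Of the 26 calls, 14 held under every alternative tried, all 14 of them higher.

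**Figure D1:**
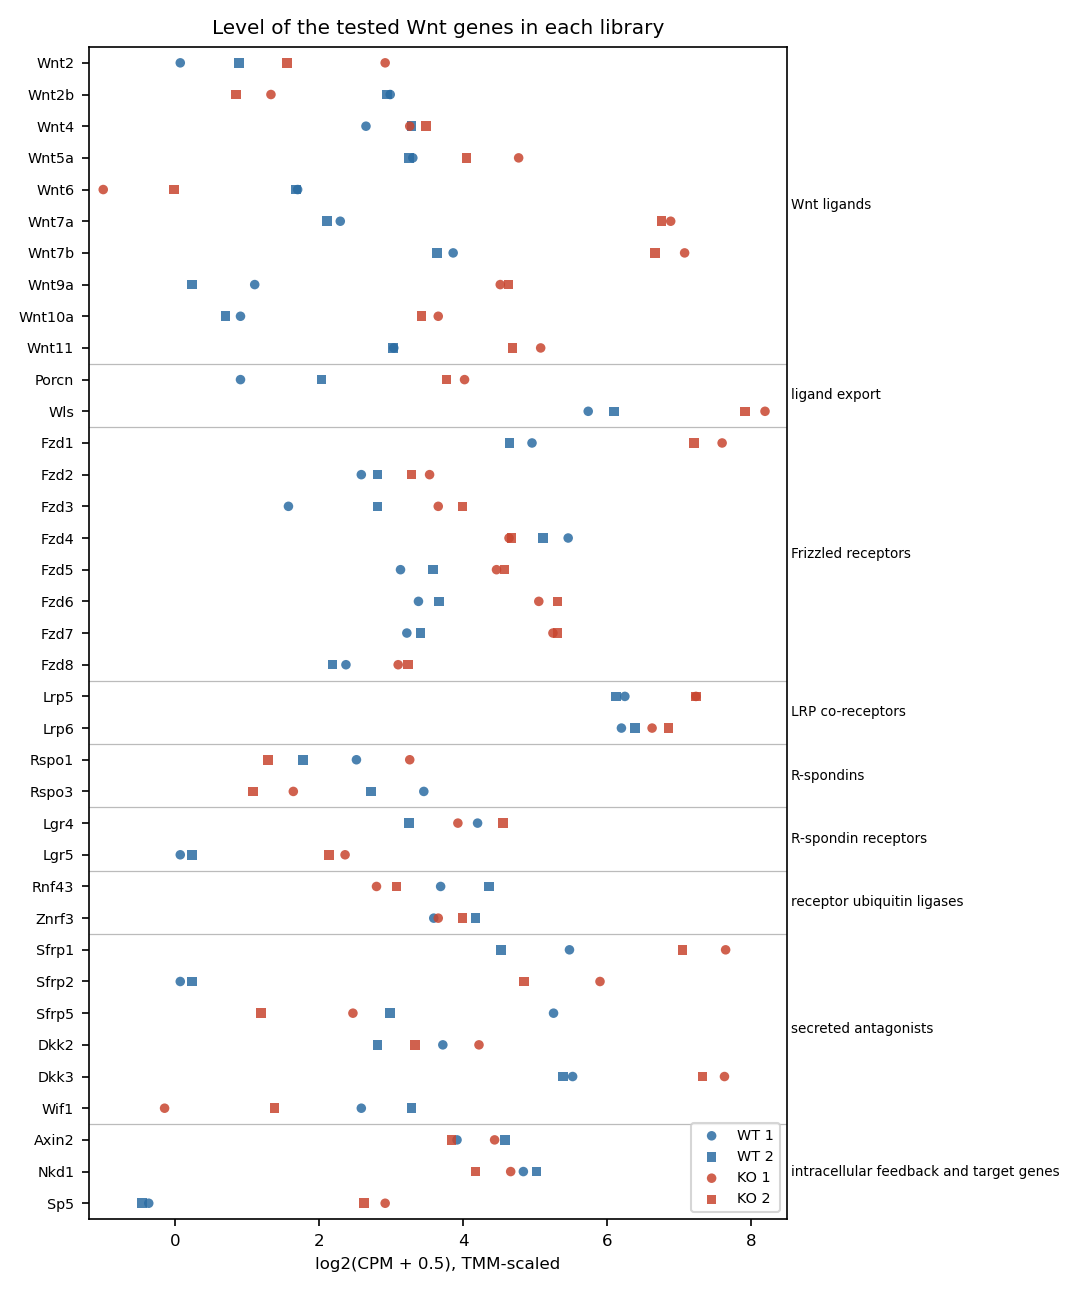
Level of each tested Wnt gene in each library, as log2(CPM + 0.5) on TMM-scaled counts. Blue points are wild-type and red points knockout-labelled libraries, circles are replicate 1 and squares replicate 2, and horizontal lines separate the roles. Wnt7a, Wnt7b, Sfrp2 and Sp5 show wide gaps between the colours, whereas Axin2 and Znrf3 overlap.

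**Figure D2:**
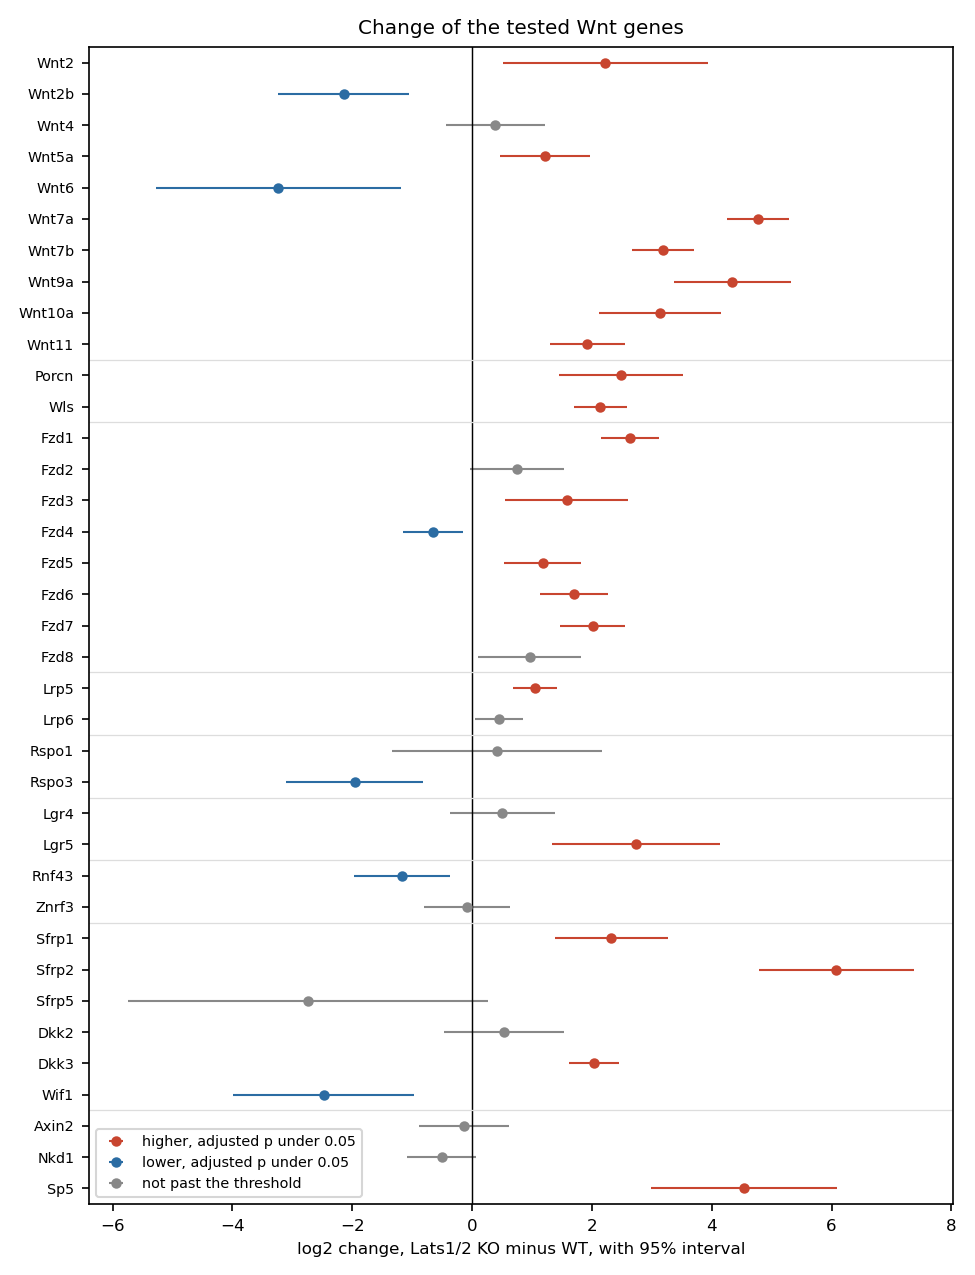
Log2 change of each of the 37 tested Wnt genes with its 95% interval from the edgeR fit, n = 2 libraries a group. Red marks the 20 genes called higher, blue the 6 called lower and grey the 11 not past the threshold. Sfrp2 has the largest rise, 6.08, and Sfrp5 the widest interval.

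Among the ligands, Wnt7a and Wnt7b, 2 closely related Wnts best known from epithelia and the nervous system, dominated the change. Wnt7a (mm10, chromosome 6, 91363981 to 91411363, minus strand) stood at 4.40 and 3.82 CPM in WT 1 and WT 2, against 117 and 107 CPM in KO 1 and KO 2. Both libraries labelled knockout thus lay far above both wild-type libraries, a 27.3-fold rise (log2 change 4.77 ± 0.23 SE, edgeR's adjusted p = 1.18e-05). Wnt7b (chromosome 15, 85535439 to 85581821, minus strand) was at 14.0 and 11.9 CPM in wild type, against 134 and 101 CPM in the knockout-labelled libraries. It rose 9.06-fold (log2 change 3.18 ± 0.23 SE, edgeR's adjusted p = 3.05e-05). An antisense model, AU022754, overlaps exons of Wnt7b and had at most 4 counts in a library.

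Wnt9a, Wnt10a and Wnt11 rose as well. Wnt9a (chromosome 11, 59306928 to 59333552) went from 6 and 3 counts in wild type (1.65 and 0.67 CPM) to 111 and 150 counts (22.3 and 24.3 CPM). The rise was 20.3-fold, with a log2 change of 4.34 ± 0.43 SE (edgeR's adjusted p = 0.000132). Wnt10a (chromosome 1, 74791516 to 74804179) was at 1.37 and 1.12 CPM in wild type, against 12.1 and 10.2 CPM in the knockout-labelled libraries (log2 change 3.14 ± 0.45 SE, edgeR's adjusted p = 0.00084). Wnt11 (chromosome 7, 98835112 to 98855195), a ligand known mainly for signalling without beta-catenin, was at 7.69 and 7.64 CPM in wild type, against 33.2 and 25.3 CPM in the others. The wild-type libraries were almost equal, and Wnt11 rose 3.80-fold (log2 change 1.92 ± 0.28 SE, edgeR's adjusted p = 0.000881).

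Wnt5a and Wnt2, ligands that mesenchymal cells are known to make, rose with less certainty. Wnt5a (chromosome 14, 28504750 to 28527448) was at 9.34 and 8.99 CPM in wild type, against 26.8 and 16.0 CPM in KO 1 and KO 2. Its log2 change of 1.22 ± 0.33 SE passed (edgeR's adjusted p = 0.0179), but it did not pass without WT 2 (1.19, edgeR's adjusted p = 0.064) or without KO 1 (0.81, edgeR's adjusted p = 0.163). Wnt2 (chromosome 6, 17988940 to 18030585) had 2 and 6 counts in wild type and 35 and 15 counts in KO 1 and KO 2. The change was 2.22 ± 0.75 SE (edgeR's adjusted p = 0.0415) and was lost without WT 1 (1.78, edgeR's adjusted p = 0.152), without WT 2 (3.03, edgeR's adjusted p = 0.0637) and without KO 1 (1.31, edgeR's adjusted p = 0.425), as well as with upper quartile scaling (2.03, edgeR's adjusted p = 0.0569) and with DESeq2 (2.28, DESeq2's adjusted p = 0.0758). Both ligands were higher in KO 1 than in KO 2, as was the fibroblast collagen Col1a1 (5784 and 3263 CPM). Of other fibroblast genes, Col1a2 (4701 and 2863 CPM) and Dcn (620 and 330 CPM) were also higher in KO 1. Pdgfra was near level (152 and 145 CPM). Pdpn, alone among the listed fibroblast genes, was higher in KO 2 (166 and 223 CPM).

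Wnt2b and Wnt6 were the ligands that fell. Wnt2b (chromosome 3, 104945272 to 104961921) was at 7.42 and 7.19 CPM in wild type, against 2.01 and 1.29 CPM in the knockout-labelled libraries. It fell 4.42-fold (log2 change -2.14 ± 0.48 SE, edgeR's adjusted p = 0.00756) but did not pass without KO 2 (-1.81, edgeR's adjusted p = 0.0694). Wnt6 (chromosome 1, 74771892 to 74785322) had 10 and 12 counts in wild type and 0 and 3 in KO 1 and KO 2. The pooled level was 10.1 times higher in wild type (95% exact binomial interval 3.04 to 52.7, for counting error only; edgeR's adjusted p = 0.0195). The call was lost without WT 1 (-3.22, edgeR's adjusted p = 0.0786), without KO 1 (-2.42, edgeR's adjusted p = 0.165) and with DESeq2 (-3.43, DESeq2's adjusted p = 0.0524), and the change was -6.57 without KO 2. Without WT 2 the gene did not pass the filter. Wnt4, at 5.77, 9.21, 9.06 and 10.7 CPM in WT 1, WT 2, KO 1 and KO 2, overlapped between the groups (log2 difference 0.39, 95% interval -0.44 to 1.21, edgeR's adjusted p = 0.419).

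The other 9 ligands stayed under the filter. Wnt1, Wnt3a and Wnt8b had 0 counts in all 4 libraries, where 3 counts in a library would be 0.486 to 0.824 CPM. Wnt5b had 7 and 8 counts in wild type and 6 and 11 in the knockout-labelled libraries, and Wnt3, Wnt8a, Wnt9b, Wnt10b and Wnt16 had at most 3 counts in any library. Neighbouring Wnt genes could differ. Wnt6 fell and Wnt10a rose although 6193 bases separate them on chromosome 1, and Wnt3a had no counts although Wnt9a, 16175 bases away on chromosome 11, rose.

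Scaled to exon length, the ligand repertoire was not only larger but differently composed. The 19 ligands together came to 14.0 and 13.9 CPM per kilobase of exon in WT 1 and WT 2 and to 93.9 and 79.0 in KO 1 and KO 2. Wnt7a and Wnt7b made up 30.3% and 26.1% of that sum in wild type and 68.6% and 68.8% in the knockout-labelled libraries. In wild type Wnt7b led at a mean of 2.65 CPM per kilobase, with 20.4% and 17.5% of the sum. Its values in WT 1 and WT 2, 2.86 and 2.43, lay above those of every other ligand. It was followed by Wnt11 at a mean of 1.85, Wnt4 at 1.79 and Wnt2b at 1.74. The 2 wild-type values of Wnt4, 1.38 and 2.20, span those of Wnt11 and Wnt2b, so these neighbours in the order do not differ beyond their spread. In the knockout-labelled libraries Wnt7a led at 35.4 CPM per kilobase, then Wnt7b at 24.0, with no overlap between their libraries. In CPM the 2 overlapped (117 and 107 for Wnt7a, 134 and 101 for Wnt7b). Their order thus rests on the exon lengths of GENCODE M21, 3172 and 4898 bases. The coordinates given for Wnt7b in the counts differ from those of GENCODE M21. Wnt11 (8.03 and 6.10 in KO 1 and KO 2) and Wnt9a (6.71 and 7.29) came next and overlapped. Wnt2b, 12.6% and 12.3% of the wild-type sum, made up 0.51% and 0.39% in KO 1 and KO 2.

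**Figure D3:**
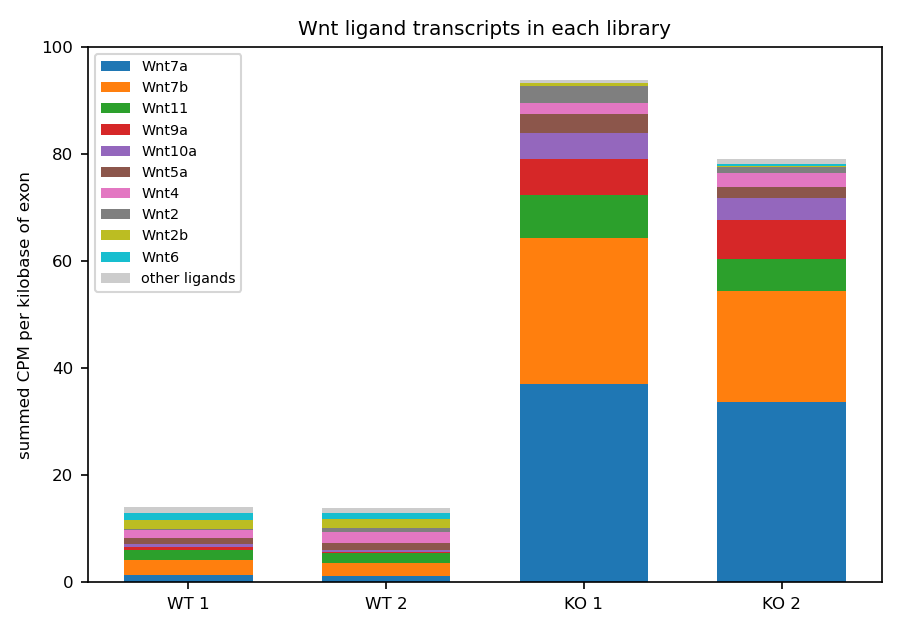
Stacked bars of the Wnt ligand levels in each library, in CPM per kilobase of annotated exon, starting at 0, with 1 colour per ligand. The bars reach 14.0 and 13.9 in wild type and 93.9 and 79.0 in the knockout-labelled libraries, where Wnt7a and Wnt7b fill the lower 68.6% and 68.8%.

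The machinery that lets cells release Wnt ligands rose alongside. Wls (chromosome 3, 159839672 to 159938664), the carrier for Wnt proteins, was at 52.8 and 67.9 CPM in wild type, against 292 and 241 CPM in the knockout-labelled libraries, a 4.41-fold rise (log2 change 2.14 ± 0.19 SE, edgeR's adjusted p = 8.68e-05). Porcn (chromosome X, 8193848 to 8206525), the acyltransferase, was at 1.37 and 3.60 CPM in wild type, against 15.7 and 13.1 CPM in the others. The change was 2.48 ± 0.45 SE on the log2 scale (edgeR's adjusted p = 0.00289). For both genes the knockout-labelled libraries lay above both wild-type ones, as for 37.4% of all tested genes. Both calls held when any 1 library was left out.

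Of the 8 tested Frizzleds 5 rose (62.5%) and 1 fell (12.5%), against 22.0% and 20.2% of all tested genes. Fzd1 (chromosome 5, 4753839 to 4758035) was at 30.5 and 24.5 CPM in wild type, against 193 and 147 CPM in the knockout-labelled libraries. It rose 6.19-fold (log2 change 2.63 ± 0.21 SE, edgeR's adjusted p = 5.25e-05). Fzd7 (chromosome 1, 59482424 to 59486955) was at 8.79 and 10.1 CPM in wild type, against 37.4 and 39.2 CPM in the others (log2 change 2.01 ± 0.24 SE, edgeR's adjusted p = 0.000308). Fzd6 (chromosome 15, 39006280 to 39038186), a receptor known from planar cell polarity, was at 9.89 and 12.1 CPM and at 32.6 and 39.2 CPM (1.70 ± 0.25 SE, edgeR's adjusted p = 0.000943). These 3 held without any 1 library.

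Fzd5 and Fzd3 rose too, but depended on single libraries. Fzd5, at 8.24 and 11.5 CPM in wild type, against 21.5 and 23.3 CPM in the knockout-labelled libraries, changed by 1.18 ± 0.28 SE (edgeR's adjusted p = 0.0107) and did not pass without WT 1 (0.98, edgeR's adjusted p = 0.0552) or without KO 2 (1.16, edgeR's adjusted p = 0.0591). Fzd3 was at 2.47 and 6.52 CPM in wild type, against 12.1 and 15.4 CPM in the others, a change of 1.58 ± 0.45 SE (edgeR's adjusted p = 0.0215). That call was lost without WT 1 (1.09, edgeR's adjusted p = 0.0786), without KO 1 (1.76, edgeR's adjusted p = 0.0694) and without KO 2 (1.44, edgeR's adjusted p = 0.127), and the change was 2.47 without WT 2. Fzd2 (log2 difference 0.75, edgeR's adjusted p = 0.115) and Fzd8 (0.96, edgeR's adjusted p = 0.0689) did not pass. Both knockout-labelled libraries were above both wild-type ones for these 2, as for 37.4% of all tested genes.

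Fzd4 (chromosome 7, 89404355 to 89413134), a receptor prominent in blood vessels, went the other way, from 43.4 and 33.9 CPM in wild type to 24.4 and 24.9 CPM. Per kilobase of exon, Fzd1 (7.27 and 5.84 CPM) and Fzd4 (6.46 and 5.05 CPM) led the Frizzleds in wild type and overlapped, while in the knockout-labelled libraries Fzd1 was at 45.9 and 35.1 CPM and Fzd4 at 3.62 and 3.71 CPM. The change of -0.65 ± 0.22 SE passed narrowly (edgeR's adjusted p = 0.0427) and did not pass without WT 1 (-0.45, edgeR's adjusted p = 0.26), KO 1 (-0.63, edgeR's adjusted p = 0.128) or KO 2 (-0.63, edgeR's adjusted p = 0.125), nor with library totals alone (-0.61, edgeR's adjusted p = 0.0703), without a filter (-0.57, edgeR's adjusted p = 0.0726) or with DESeq2 (-0.67, DESeq2's adjusted p = 0.0898). In the same libraries the 10 endothelial genes had a median change of -0.67, from -1.47 for Pecam1 to 0.20 for Flt4. Fzd10 had 6 and 7 counts in wild type and 0 in KO 1 and KO 2. Against a floor of 3 counts over the group it was at least 5.97-fold lower, and it was called lower when no filter was applied. Fzd9 had at most 3 counts in a library.

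Of the LRP co-receptors, Lrp5 (chromosome 19, 3584828 to 3686564) rose from 75.3 and 69.2 CPM to 149.7 and 149.6 CPM (log2 change 1.05 ± 0.16 SE, edgeR's adjusted p = 0.00113). Lrp6 was at 72.8 and 82.9 CPM in wild type, against 98.0 and 115 CPM in the knockout-labelled libraries. Its difference of 0.45 (95% interval 0.06 to 0.85) did not pass (edgeR's adjusted p = 0.0658). It passed when no filter was applied (0.53, edgeR's adjusted p = 0.0268).

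In the R-spondin axis 2 genes fell, 1 rose and 3 did not pass, where 20.2% of all tested genes fell and 22.0% rose. Rspo3 (chromosome 10, 29452416 to 29535867), an R-spondin made in stroma and endothelium, fell from 10.4 and 6.07 CPM to 2.62 and 1.62 CPM (log2 change -1.96 ± 0.50 SE, edgeR's adjusted p = 0.0137). It did not pass without WT 1 (-1.51, edgeR's adjusted p = 0.0946) or without KO 2 (-1.61, edgeR's adjusted p = 0.103). Rspo1 stood at 5.22 and 2.92 CPM in WT 1 and WT 2, against 9.06 and 1.94 CPM in KO 1 and KO 2, so KO 1 was the highest and KO 2 the lowest of all 4 libraries (log2 difference 0.42, 95% interval -1.33 to 2.17, edgeR's adjusted p = 0.682), and its sign turned without KO 1 (-1.05, edgeR's adjusted p = 0.376). Rspo2 had 0 counts in every library and Rspo4 had 0, 0, 4 and 1.

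Among the R-spondin receptors, Lgr5 (chromosome 10, 115450311 to 115587780), known as a marker of Wnt-responsive epithelial stem cells, had 2 and 3 counts in wild type and 23 and 24 in the knockout-labelled libraries. It rose 6.64-fold (log2 change 2.73 ± 0.62 SE, edgeR's adjusted p = 0.00787) to a low level, 4.63 and 3.88 CPM, and did not pass without KO 1 (2.61, edgeR's adjusted p = 0.0973) or without KO 2 (2.89, edgeR's adjusted p = 0.0633). Lgr4, the broadly expressed member, was at 17.9 and 8.99 CPM in wild type, against 14.7 and 23.0 CPM in the others, with overlapping groups (log2 difference 0.51, 95% interval -0.37 to 1.38, edgeR's adjusted p = 0.318). Per kilobase of exon, Lgr4 was at 2.50 and 3.91 and Lgr5 at 0.451 and 0.378 in KO 1 and KO 2, so Lgr4 was the higher of the pair in both libraries. Lgr6 had 7, 20, 6 and 3 counts in WT 1, WT 2, KO 1 and KO 2 and was not tested.

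Rnf43 (chromosome 11, 87662722 to 87735539), the ubiquitin ligase that R-spondins oppose, had 45 and 89 counts in WT 1 and WT 2 and 32 and 49 in KO 1 and KO 2, and fell 2.25-fold in CPM. Both knockout-labelled libraries were lower in CPM than both of wild type, as for 36.8% of all tested genes, with WT 2 the highest. The change was -1.17 ± 0.35 SE (edgeR's adjusted p = 0.026), and it did not pass without WT 2 (-0.77, edgeR's adjusted p = 0.203), without KO 1 (-1.03, edgeR's adjusted p = 0.134) or without KO 2 (-1.30, edgeR's adjusted p = 0.0786). Its relative Znrf3 was at 11.5 and 17.5 CPM in wild type, against 12.1 and 15.4 CPM in the knockout-labelled libraries. Those groups overlapped (log2 difference -0.09, 95% interval -0.81 to 0.63, edgeR's adjusted p = 0.851).

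Of the 6 tested secreted antagonists 3 rose (50%) and 1 fell (16.7%), against 22.0% and 20.2% of all tested genes. Sfrp2 (chromosome 3, 83766321 to 83774316), a Frizzled-related decoy typical of fibroblasts, had 2 and 3 counts in wild type and 294 and 174 counts in KO 1 and KO 2, or 59.2 and 28.2 CPM. It rose 67.7-fold (log2 change 6.08 ± 0.56 SE, edgeR's adjusted p = 0.00014). Sfrp1 (chromosome 8, 23411502 to 23449632) was at 44.0 and 22.5 CPM in wild type, against 199 and 132 CPM in the others. The change of 2.32 ± 0.38 SE passed (edgeR's adjusted p = 0.00537), but not without KO 1 (1.99, edgeR's adjusted p = 0.0651) or without KO 2 (2.62, edgeR's adjusted p = 0.0537). Dkk3 (chromosome 7, 112116017 to 112159057), a divergent Dickkopf protein whose effect on LRP signalling is unsettled, went from 45.3 and 41.4 CPM to 197 and 159.6 CPM (log2 change 2.04 ± 0.18 SE, edgeR's adjusted p = 8.08e-05). In the same libraries the 10 fibroblast and stellate genes had a median change of 1.76, from -0.21 for Dpt to 3.72 for Mfap5. Pdgfra was at 1.15 and Col1a1 at 2.75.

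Wif1 (chromosome 10, 121033960 to 121100650), which binds Wnt ligands, fell from 5.50 and 9.21 CPM to 0.402 and 2.10 CPM (log2 change -2.48 ± 0.66 SE, edgeR's adjusted p = 0.0168). It did not pass without WT 2 (-2.05, edgeR's adjusted p = 0.0989) or without KO 1 (-1.79, edgeR's adjusted p = 0.0864), and the change was -4.07 without KO 2. Sfrp5 had 137 and 33 counts in WT 1 and WT 2 and 25 and 11 in KO 1 and KO 2. Its level thus differed more between the wild-type libraries (37.6 and 7.42 CPM) than between WT 2 and KO 1 (5.03 CPM), and it did not pass (log2 difference -2.74 ± 1.06 SE, edgeR's adjusted p = 0.12). It passed without WT 2 (-3.49, edgeR's adjusted p = 0.000908), without a filter (-2.67, edgeR's adjusted p = 0.0258) and with DESeq2 (-2.74, DESeq2's adjusted p = 0.00127). Dkk2, at 12.6 and 6.52 CPM in wild type, against 18.1 and 9.55 CPM in the others, overlapped between the groups (edgeR's adjusted p = 0.355). Sfrp4 had 8 to 10 counts in every library. Dkk1 had 1, 5, 1 and 0 counts in WT 1, WT 2, KO 1 and KO 2, Notum 4, 2, 8 and 2, and Dkk4 had none.

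Per kilobase of exon the 10 antagonists summed to 50.5 and 28.3 CPM in WT 1 and WT 2, against 141 and 95.6 CPM in KO 1 and KO 2. In wild type the sum rested on Dkk3 (13.5 and 12.3), Sfrp1 (10.1 and 5.14) and Sfrp5 (19.8 and 3.90). In the knockout-labelled libraries Dkk3 (58.7 and 47.5), Sfrp1 (45.6 and 30.1) and Sfrp2 (27.5 and 13.1) led. Sfrp2 was thus among the lowest antagonists in wild type and behind only Dkk3 and Sfrp1 in the knockout-labelled libraries.

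Of the 3 tested intracellular feedback and target genes 1 rose (33.3%, against 22.0% of all tested genes), and 2 did not pass. Axin2 (chromosome 11, 108920349 to 108950783), the scaffold whose transcription is the most used readout, was at 14.6 and 23.4 CPM in wild type, against 21.1 and 13.8 CPM in KO 1 and KO 2. The groups overlapped and the difference was -0.13 (95% interval -0.88 to 0.62, edgeR's adjusted p = 0.772), and that interval takes in changes of either sign. Nkd1, a Dishevelled-binding feedback inhibitor, was at 28.0 and 31.9 CPM in wild type, against 24.8 and 17.5 CPM in the others (log2 difference -0.51, 95% interval -1.08 to 0.06, edgeR's adjusted p = 0.133), and passed as lower with upper quartile scaling (-0.71, edgeR's adjusted p = 0.0497). Sp5 (chromosome 2, 70474923 to 70477729), a transcription factor gene that beta-catenin is known to switch on directly, had 1 count in each wild-type library and 35 in each library labelled knockout. The pooled ratio was 25.4 (95% exact binomial interval 6.77 to 214; edgeR's adjusted p = 0.00106). Sp5 and Lgr5 thus rose from near 0, Rnf43 fell, and Axin2, Nkd1 and Znrf3 did not pass.

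**Figure D4:**
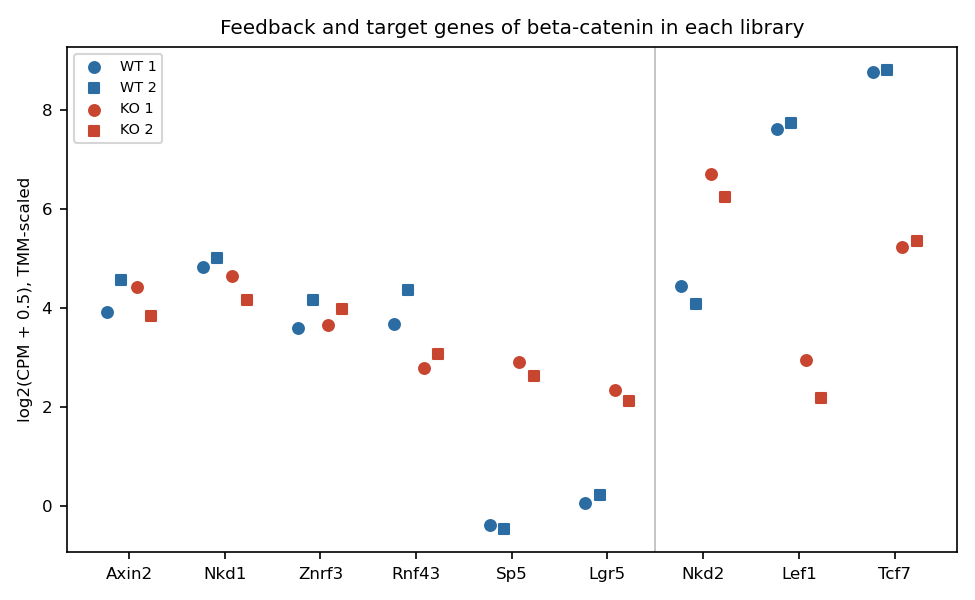
Level of 6 Wnt feedback and target genes (left of the line) and of Nkd2, Lef1 and Tcf7 (right) in each library, as log2(CPM + 0.5). Colours and shapes mark the libraries as named in the key. Axin2 is at 14.6 and 23.4 CPM in wild type, against 21.1 and 13.8 CPM in the knockout-labelled libraries, while Sp5 and Nkd2 lie higher and Lef1 and Tcf7 lower in both of the latter.

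Promoters of 4 of these genes are shown because they differ in their response while belonging to the same pathway: Sp5 and Wnt11, which rose and hold a TCF/LEF core, Wnt7a, the ligand with the largest rise, and Axin2, which did not pass. Each runs from 250 bases before to 50 after the start of transcription, is from RefSeq on GRCm38.p6 (the same assembly as mm10) and reads along the gene's strand. Capitals mark matches to the TCF/LEF core (CTTTGAA or CTTTGAT), the TEAD core (GGAATG) or the AP-1 site (TGANTCA), each searched on both strands. The coordinates are chr2:70474673-70474972 (plus) for Sp5, chr7:98834862-98835161 (plus) for Wnt11, chr6:91411304-91411603 (minus) for Wnt7a and chr11:108920099-108920398 (plus) for Axin2.
Sp5: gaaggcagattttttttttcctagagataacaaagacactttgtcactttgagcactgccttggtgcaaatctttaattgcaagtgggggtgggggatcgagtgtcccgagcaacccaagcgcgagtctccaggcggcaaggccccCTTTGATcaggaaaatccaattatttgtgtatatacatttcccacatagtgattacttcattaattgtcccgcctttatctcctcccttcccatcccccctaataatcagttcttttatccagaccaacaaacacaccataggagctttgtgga
Wnt11: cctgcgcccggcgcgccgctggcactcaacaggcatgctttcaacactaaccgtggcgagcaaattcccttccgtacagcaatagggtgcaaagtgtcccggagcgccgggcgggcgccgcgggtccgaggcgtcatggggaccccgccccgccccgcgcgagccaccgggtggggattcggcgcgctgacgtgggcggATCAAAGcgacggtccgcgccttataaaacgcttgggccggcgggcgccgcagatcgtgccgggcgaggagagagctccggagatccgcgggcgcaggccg
Wnt7a: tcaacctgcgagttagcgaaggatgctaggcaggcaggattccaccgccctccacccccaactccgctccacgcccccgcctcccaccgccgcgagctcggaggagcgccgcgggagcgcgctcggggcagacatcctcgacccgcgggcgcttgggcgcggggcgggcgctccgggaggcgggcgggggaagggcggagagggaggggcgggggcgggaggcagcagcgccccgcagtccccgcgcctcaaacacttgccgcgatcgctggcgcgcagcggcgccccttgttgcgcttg
Axin2: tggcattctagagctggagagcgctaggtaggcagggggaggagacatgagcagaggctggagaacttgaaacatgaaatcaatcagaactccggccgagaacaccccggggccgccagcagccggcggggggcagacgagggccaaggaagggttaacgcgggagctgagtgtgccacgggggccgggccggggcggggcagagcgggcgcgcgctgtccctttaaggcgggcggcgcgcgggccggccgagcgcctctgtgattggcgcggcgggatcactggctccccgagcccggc

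In the Sp5 window the core begins at position -104 from the start, and in the Wnt11 window its reverse complement begins at -51. The Wnt7a and Axin2 windows hold none of the 3 motifs, which says only that these letters are not within those bases. Windows were given for 35 of the 55 genes (39 windows), and 4 of the 39 (10.3%) held the TCF/LEF core, 2 (5.13%) the TEAD core and 1 (2.56%) the AP-1 site. The TCF/LEF core was in windows of Sp5, Wnt11, Wnt5b and Dkk1, and the latter pair stayed under the filter on counts. Another window of Wnt11 did not hold it. Over all 32851 windows of the same length the shares were 8.65%, 14.7% and 7.81%. Of 11 windows of genes called higher, 2 held the TCF/LEF core, 0 the TEAD core and 0 the AP-1 site. A match is a description of sequence, and binding was not measured.

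Other parts of the pathway were read from lists of 73 genes that are not among the 55. Of these, 68 were tested, 27 rose and 6 fell (3 without KO 2), with a median log2 change of 0.41. That is 39.7% higher and 8.82% lower, where 22.0% and 20.2% of all tested genes were called. Tpbg and Dact2 reached the filter only in the knockout-labelled libraries and Celsr3 and Apc2 only in wild type. These 4 had to differ, so the counts and medians of the lists are a description. Receptors of signalling without beta-catenin and planar polarity genes had 10 of 17 higher (58.8%) and 1 lower (median 0.95). Ptk7, a co-receptor pseudokinase, rose 9.70-fold, from 12.2 ± 1.73 to 118 ± 40.5 CPM (SD, n = 2; log2 change 3.28 ± 0.28 SE, edgeR's adjusted p = 7.77e-05), and Dact2, a Dishevelled-binding protein, changed by 2.38 ± 0.51 SE (edgeR's adjusted p = 0.00597) but did not pass without KO 1 (2.18, edgeR's adjusted p = 0.0644). Celsr3, an atypical cadherin, passed as lower (-1.62 ± 0.56 SE, edgeR's adjusted p = 0.0461), yet did not pass without WT 1, WT 2, KO 1 or KO 2 (edgeR's adjusted p = 0.24, 0.122, 0.254 and 0.198). Nor did it pass with library totals alone (edgeR's adjusted p = 0.0555), without a filter (edgeR's adjusted p = 0.132) or with DESeq2 (DESeq2's adjusted p = 0.17). The Wnt5a receptors Ror1, Ror2 and Ryk, singled out after their values were seen, rose by 2.28, 1.31 and 1.79 (edgeR's adjusted p = 0.000593, 0.0181 and 0.000171), Ror2 not without WT 1 (0.96, edgeR's adjusted p = 0.0763) or KO 2 (1.09, edgeR's adjusted p = 0.118).

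Among 18 genes of Dishevelled and the beta-catenin destruction complex 8 rose (44.4%) and 1 fell (median 0.45). Ctnnbip1, an inhibitor of beta-catenin binding to TCF, rose from 4.32 ± 1.66 to 20.1 ± 4.35 CPM (SD, n = 2; edgeR's adjusted p = 0.00197), the kinase Csnk1e by 1.69 ± 0.19 SE (edgeR's adjusted p = 0.000267), and Apc2 fell by 3.59 on the log2 scale (edgeR's adjusted p = 0.0019). Ctnnb1, which encodes beta-catenin and was singled out after its values were seen, was at 257 ± 3.39 CPM in wild type, against 526 ± 82.1 CPM in the knockout-labelled libraries (SD, n = 2; log2 change 1.03 ± 0.17 SE, edgeR's adjusted p = 0.0019). Of the 11 tested secreted or membrane regulators 3 rose (27.3%) and 1 fell (median 0.40). Tpbg, a membrane glycoprotein that inhibits Wnt signalling, had 1 count in each wild-type library and 21 and 81 in KO 1 and KO 2 (edgeR's adjusted p = 0.00245), and the DKK receptor Kremen1 changed by 1.42 ± 0.19 SE (edgeR's adjusted p = 0.000581). Sostdc1, an antagonist of Wnt and BMP, fell from 8.08 ± 0.62 to 1.59 ± 0.88 CPM (SD, n = 2; edgeR's adjusted p = 0.00695) and did not pass without KO 2 (-1.82, edgeR's adjusted p = 0.0605).

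Of 13 TCF/LEF factors and co-factors 3 fell and 1 rose (median -0.15), and the 23.1% that fell is near the 20.2% of all tested genes. Lef1 went from 195 and 212 CPM in wild type to 7.24 and 4.05 CPM (log2 change -5.19 ± 0.27 SE, edgeR's adjusted p = 1.26e-05), and Tcf7 from 433 and 447 CPM to 37.0 and 40.5 CPM (-3.50 ± 0.17 SE, edgeR's adjusted p = 1.18e-05). Both are also standard T cell genes, and in the same libraries the 10 T and NK cell genes had a median change of -5.19, with Cd3e at -5.23. Tle3, a co-repressor singled out after its values were seen, fell by 0.46 on the log2 scale (edgeR's adjusted p = 0.0483), but not without WT 1 (-0.57, edgeR's adjusted p = 0.0826), WT 2 (-0.33, edgeR's adjusted p = 0.31), KO 1 (-0.46, edgeR's adjusted p = 0.0997) or KO 2 (-0.43, edgeR's adjusted p = 0.118). It also did not pass with library totals alone (edgeR's adjusted p = 0.0638), without a filter (edgeR's adjusted p = 0.0989) or with DESeq2 (DESeq2's adjusted p = 0.0587). Its relative Tle1 passed as higher (0.66 ± 0.22 SE, edgeR's adjusted p = 0.041), but not with upper quartile scaling (0.46, edgeR's adjusted p = 0.12), with DESeq2 (0.64, DESeq2's adjusted p = 0.103) or without WT 1, WT 2 or KO 2 (edgeR's adjusted p = 0.141, 0.095 and 0.178). Of 12 tested beta-catenin target genes outside the 55, 5 rose (41.7%) and 2 fell (median 0.46), and the 2 that fell were again Lef1 and Tcf7. Nkd2, a relative of Nkd1, rose from 18.8 ± 3.36 to 89.3 ± 19.7 CPM (SD, n = 2; edgeR's adjusted p = 0.000178) and the adhesion receptor Cd44 by 2.13 ± 0.17 SE (edgeR's adjusted p = 5.21e-05).

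Some Wnt genes differed strongly between libraries of the same group, and markers of other cells differed with them. Rspo1 was highest in KO 1 (9.06 CPM) and lowest in KO 2 (1.94 CPM), and so was the mesothelial gene Upk3b, at 3.57, 1.80, 9.66 and 1.62 CPM in WT 1, WT 2, KO 1 and KO 2. The mesothelial list as a whole did not follow that order across the libraries. Its sum, most of it Cpe and Msln, was 131 to 160 CPM in wild type, against 435 to 475 CPM in the others. Of 6 tested genes 2 were higher. Muc16 (8.85 and 1.29 CPM) and Wt1 (20.3 and 12.6 CPM) were also higher in KO 1 than in KO 2. So were Lrrn4 (3.42 and 0.81 CPM), Bnc1 (1.41 and 0.65 CPM) and, by less, Msln (285 and 266 CPM). Cpe (146 and 151 CPM) and Upk1b (1.01 and 1.46 CPM) were higher in KO 2. Sfrp5 was 5.08 times as high in WT 1 as in WT 2, and the Schwann cell genes Sox10 (17.0 and 4.27 CPM) and Cdh19 (23.9 and 4.94 CPM) differed the same way. The list did not follow as a whole: Ngfr was at 71.7 and 70.1 CPM and Prph at 60.2 and 66.5 CPM in WT 1 and WT 2. Between KO 1 and KO 2, Sox10 (0.80 and 1.94 CPM) and Cdh19 (2.62 and 4.37 CPM) ran opposite to Sfrp5 (5.03 and 1.78 CPM). The 10 Schwann and nerve genes summed to 208 to 287 CPM in wild type, against 67.7 to 79.5 CPM in the others, and 7 of 9 tested were lower. Wnt2, Wnt5a and Sfrp2 were all higher in KO 1 than in KO 2, as were the summed fibroblast genes (15044 and 9611 CPM). That list did not follow as a whole either. Pdgfra (152 and 145 CPM) and Mfap5 (66.6 and 65.6 CPM) were near level, and Pdpn was higher in KO 2 (166 and 223 CPM). What these cells contributed to the Wnt genes was not tested.

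**Figure D5:**
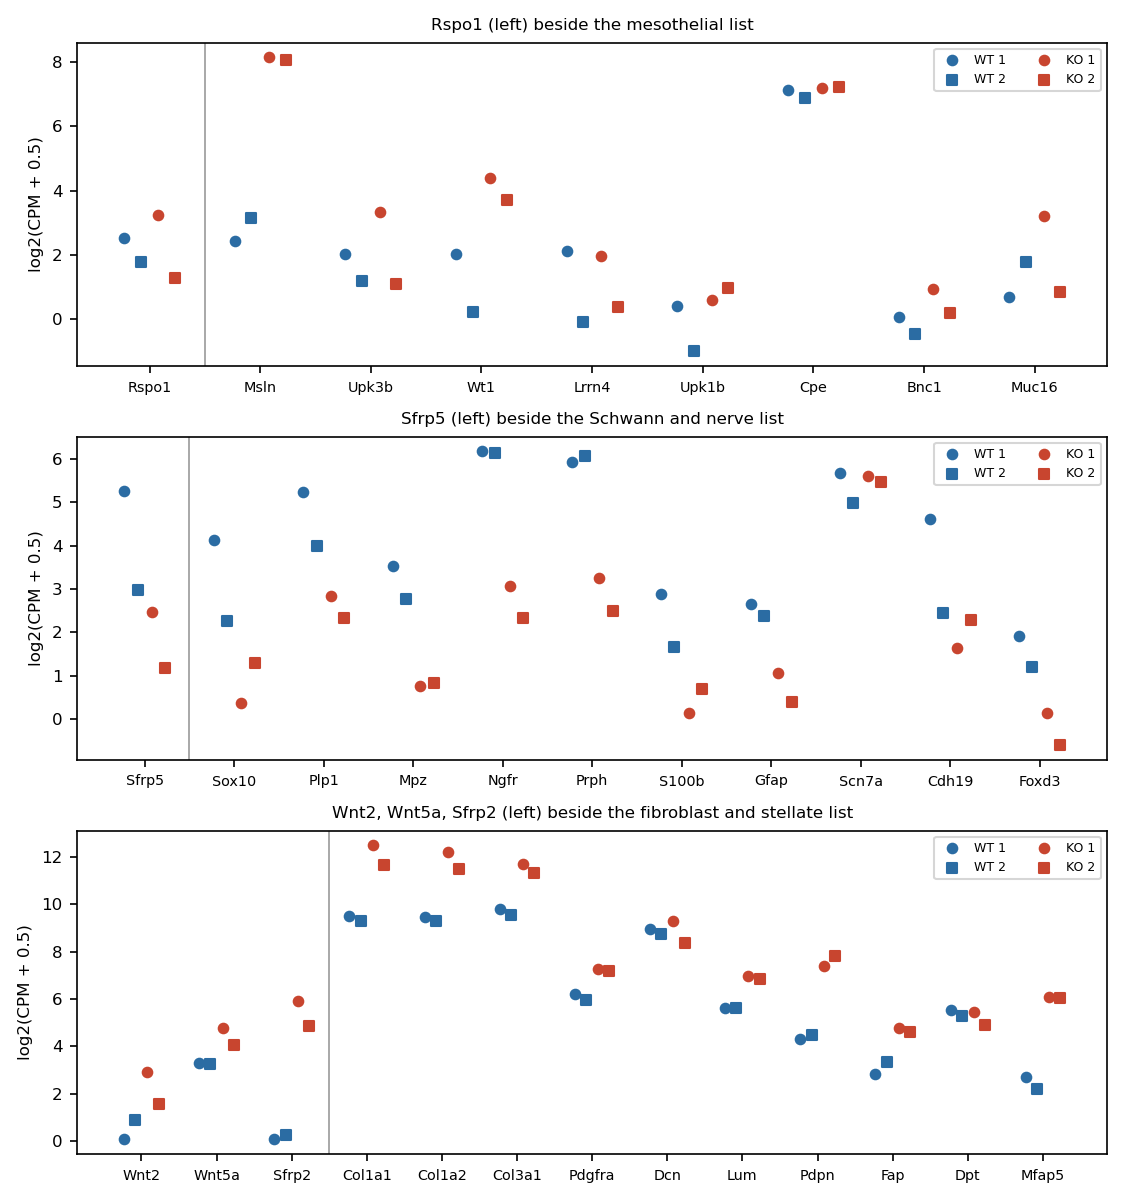
Rspo1, Sfrp5, and Wnt2, Wnt5a and Sfrp2 (left of each line) beside the whole marker list of mesothelial, Schwann and nerve, and fibroblast and stellate cells, as log2(CPM + 0.5) in each library. Blue is wild type, red knockout-labelled, circles replicate 1 and squares replicate 2. Rspo1 and Upk3b share the order KO 1, WT 1, WT 2, KO 2, and Sfrp5, Sox10 and Cdh19 are highest in WT 1.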

How the data were processed

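RNA from mouse pancreas samples labelled ductal was sequenced, 2 libraries of wild type and 2 labelled Lats1/2 KO. Per the labels' protocols, an easy-BLUE kit and then a SMARTer stranded kit were used on total RNA. The deposited files hold whole-number counts of reads for each gene model, 1 library in each. Per the submitters' processing notes the build was mm10 and the tools were TopHat and edgeR. Tool versions, counting program, annotation and use of strand were not given in the sources used here. Exons of 9 of the 55 genes overlap an opposite-strand model in GENCODE M21, and such models found in the files had at most 4 counts in a library.

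Counts were filtered with filterByExpr, TMM-scaled and tested in R 4.3.3 with edgeR 4.0.16 (robust quasi-likelihood, group alone, residual df 2), with Benjamini-Hochberg adjustment over 13990 genes and a threshold of 0.05. The SE is the log2 change divided by the root of F. The method was tested on simulated data. Replicates differed beyond sampling noise (chi-square per degree of freedom 22.4 for wild type and 22.2 for Lats1/2 KO). Depth was 3566387 to 5925601 counts, so 3 counts equal 0.486 to 0.824 CPM, and intervals on counts cover counting error only. Levels between genes were compared per kilobase of merged exons. Alternatives were other scalings, no filter, a replicate block, DESeq2 1.42.0 and leaving out each library. All genes of the set were described. Of the other pathway lists, up to 2 largest rises and 2 largest falls past the threshold were named, and genes added after their values were seen are marked so. The members and lists were chosen with earlier results of these data known.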

Additional observations from a re-analysis of the deposited data

How the results depend on the processing

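Across 10 alternatives the Wnt genes called higher numbered 15 to 21, against 20. The Wnt genes called lower numbered 2 to 4 when 1 library was left out, against 6, and 5 to 7 otherwise. Other pathway genes called lower numbered 3 to 5 when 1 library was left out, against 6. No called Wnt gene turned direction. Of genes that were not called, Axin2 ranged from -0.46 to 0.26 when 1 library was left out (above 0 without WT 2, and at 0.19 without KO 2), Znrf3 from -0.33 to 0.26 (above 0 without WT 2, and at 0.08 without KO 1), and Rspo1 from -1.05 without KO 1 to 1.19. The cause was not tested. Leaving out a library leaves 1 sample in its group, which is then assumed to vary like the other group. Upper quartile scaling moved the median of all genes to -0.20 and the share of calls that were higher to 39.4%, against 52.1%, and no filter moved the median to -0.11. The labels do not say that replicate numbers pair the libraries, and deviations of same-numbered libraries correlated at 0.038 across genes. With the replicate block 6656 genes were called, against 5909, with 21 Wnt genes higher and 7 lower. The block added Lrp6 (0.45, edgeR adjusted p = 0.0396) and Sfrp5 (-2.56, edgeR adjusted p = 5.87e-08) and ended no call among the Wnt genes. Of the other pathway genes named, it ended the call of Celsr3 (-1.61, edgeR adjusted p = 0.0613). With 2 libraries a group, genes of a few counts such as Wnt6, Wnt2 and Lgr5 are limited by depth.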
